A study of Homo sapiens with 2 samples.

Results

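The 9 genes described here encode enzymes that make, recycle or break down the deoxynucleotides from which DNA is built: TYMS, TK1, TK2, RRM1, RRM2, RRM2B, DUT, DTYMK and SAMHD1. They were chosen by symbol from 40392 genes, and all 9 were found by their Entrez identifiers in both libraries. The RNA came from KYSE30, a human line established from a squamous carcinoma of the esophagus, and was sequenced with 1 library per group and 2 libraries in all. Below, mock cells and RHCG cells stand for these 2 libraries. The mock library came from stable transfectants that carry the vector pIRES2-EGFP, and the RHCG library from stable transfectants that carry an expression vector for human RHCG, an ammonium transporter of squamous epithelium. The labels do not say whether each transfectant was 1 clone or a pool of clones. A spread between replicates cannot be given, the groups were not tested against each other, and each difference below compares these 2 libraries. RHCG itself was at 0 in mock cells and at 413 RPKM in RHCG cells, where RPKM is reads per kilobase of gene model, scaled to depth. The scaling of the files fits a depth of about 18900000 reads for mock cells and 22100000 for RHCG cells. Of 8 squamous epithelium markers 7 were measured and KRT5 was listed at 0 in both libraries. KRT13, KRT15 and SOX2 of these passed the 2-fold rule given below, downward in RHCG cells, as did 3.30% of all genes measured. Of the 7 markers, 5 had ratios below 0 and 2 above 0, DSG3 (7.01 and 12.6 RPKM) and KRT14 (3.31 and 4.21 RPKM). The summed level of the list was 602 RPKM in mock cells and 253 in RHCG cells, of which KRT13 made up 407 and 164 RPKM. The part of these markers in the results was not tested. Of the markers of other cell types, PTPRC, DCN and PECAM1 were at 0 in both libraries; 1 of 5 leukocyte markers (CD68, 15.4 and 8.89 RPKM), 1 of 5 fibroblast markers (COL1A1, 1.19 and 1.44 RPKM) and 1 of 4 endothelial markers (EGFL7, 16.7 and 17.2 RPKM) were measured.

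Ribonucleotide reductase converts ribonucleoside diphosphates to deoxyribonucleoside diphosphates. It pairs the large catalytic subunit RRM1 with a small subunit, which is RRM2 in cycling cells or RRM2B, a p53-induced form that serves cells outside S phase. Thymidylate comes from dUMP through TYMS, after DUT has cut dUTP to dUMP, or by salvage of thymidine through TK1 in the cytosol and TK2 in mitochondria, and DTYMK adds the next phosphate. SAMHD1 works in the opposite direction and hydrolyses deoxynucleoside triphosphates. Messenger RNAs of TYMS, TK1, RRM1, RRM2 and DUT are known to peak around the G1/S transition and S phase, whereas TK2 and RRM2B are known to be expressed largely outside that control.

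In RHCG cells TYMS, DUT and TK1 of the thymidylate routes and RRM1 of ribonucleotide reductase were lower than in mock cells, while the mitochondrial kinase TK2 and the p53-induced small subunit RRM2B had higher values that stayed under 2-fold. A gene was called higher or lower when log2((RHCG + 1)/(mock + 1)), with values in RPKM, reached 1 or −1. Of the 9 genes, 4 were lower (TYMS, RRM1, DUT and TK1) and 0 were higher. Among all 12857 genes measured, 3.30% were lower and 2.74% higher by the same rule. The median log2 ratio of the 9 genes was −0.92, against −0.01 for all genes measured. RRM2, SAMHD1 and DTYMK also had ratios below 0 but did not reach the rule, and TK2 and RRM2B had ratios above 0. No gene of the 9 was filtered out, since none was listed at 0 in either library. In bulk RNA, fewer cells in S phase and less RNA per cell cannot be told apart.

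**Figure D1:**
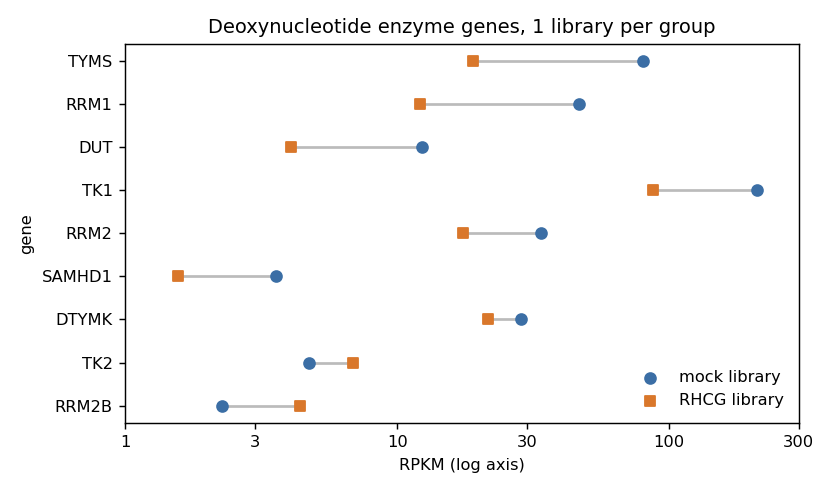
Level of each of the 9 genes in RPKM (log axis) in the mock library (circles) and the RHCG library (squares), ordered by log2 ratio. The gap is widest for TYMS and RRM1, and the squares lie right of the circles for TK2 and RRM2B alone.

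E2F factors bind words close to TTTGGCGC, and NF-Y binds CCAAT, and both words are known from promoters of S phase genes. Short promoter stretches that hold them are shown to set genes with large and small ratios side by side. The 250 bases before each RefSeq start site (GRCh38.p14) were searched on both strands for TTTGGCGC, TTTCCCGC, TTTCGCGC and TTTGCCGC (the E2F words) and for CCAAT, each set counted by itself where words overlap. RefSeq start sites were matched for 8 of the 9 genes, with more than 1 start for TK1, RRM2 and DUT. RRM2B had no matched start and was not searched. Each line gives 30 bases, 5′ to 3′ on the gene's strand, with the match in capitals, as the word or its reverse complement.
TYMS, E2F word: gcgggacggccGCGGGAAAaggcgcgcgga
DUT, upstream E2F word: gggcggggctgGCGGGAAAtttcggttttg
DUT, downstream E2F word: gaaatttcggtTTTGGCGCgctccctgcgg
RRM2, upstream CCAAT: ggcaaggcgcagCCAATgggaagggtcgga
RRM2, middle CCAAT: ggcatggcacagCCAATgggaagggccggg
RRM2, downstream CCAAT: ggggcaccaaagCCAATgggaagggccggg
TK1, upstream CCAAT: ggccgggcgctgATTGGccccatggcggcg
TK1, downstream CCAAT: ggccggctcgtgATTGGccagcacgccgtg
RRM1, CCAAT: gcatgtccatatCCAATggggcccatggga
SAMHD1, both CCAAT words: ctgcgcaggaggCCAATaggctgCCAATac

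The TYMS stretch lies at chr18:657603-657632 (plus strand), with its word starting 39 bases before the start site. The DUT stretches lie at chr15:48332144-48332173 and chr15:48332159-48332188 (plus strand) and overlap, with words 42 and 27 bases before the most downstream of 4 listed starts. The RRM2 stretches lie at chr2:10122604-10122633, chr2:10122634-10122663 and chr2:10122661-10122690 (plus strand), before the downstream of 2 starts. The upstream RRM2 start held 1 further CCAAT, 249 bases before it, whose stretch is not shown. The TK1 stretches lie at chr17:78187112-78187141 and chr17:78187081-78187110 (minus strand), before the downstream of 2 starts. The upstream TK1 start held no E2F word and no CCAAT. Those of RRM1 and SAMHD1 lie at chr11:4094645-4094674 (plus strand) and chr20:36951740-36951769 (minus strand). An E2F word stands in 2.79% of the 35116 start sites in the table and 2 or more stand in 0.122%. CCAAT stands in 32.0% of them, at least 2 in 9.53% and at least 3 in 2.93%, so that a single CCAAT is common. DTYMK, whose ratio was −0.39, also held 2 CCAAT words, SAMHD1 held 2, and TK2 held no word of either kind. E2F words were found for TYMS and DUT of the 8 genes searched. Counted per gene at any listed start, 5.68% of the 9827 measured genes in the table held an E2F word and 41.8% held CCAAT. The words TTTGAA and TTCGAA were searched in the same way, and their stretches are not shown. They were found for RRM1, DUT and DTYMK of the 8 genes, beside 13.1% of the measured genes. A match describes letters and is not a binding site.

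TYMS, which makes thymidylate from dUMP, was at 79.9 RPKM in mock cells and 18.96 in RHCG cells. This is 4.22-fold lower (log2 ratio −2.02), rank 32 from the lowest of the 12857 genes measured. On about 2515 and 695 reads, the counting interval of the fold was 3.87 to 4.59 (approximate 95%, exact Clopper-Pearson). Such intervals cover counting error only and hold no difference between cultures or library preparations. The 3′ end of TYMS overlaps ENOSF1 on the opposite strand, and whether reads were counted by strand is not given in the sources used here. ENOSF1 was at 12.6 and 9.17 RPKM, a log2 ratio of −0.42, and the divergent RNA TYMSOS was listed at 0 in both libraries.

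DUT, the dUTPase that supplies dUMP and keeps uracil out of DNA, was at 12.4 RPKM in mock cells and 4.09 in RHCG cells. It was 3.02-fold lower (counting interval 2.63 to 3.49), with a log2 ratio of −1.39. The table gives 1 value per gene, so the nuclear and mitochondrial isoforms of DUT, which start at different sites, were counted together. DTYMK, the thymidylate kinase through which both routes pass, was at 28.6 RPKM in mock cells and 21.6 in RHCG cells. Its fold was 1.32 (1.18 to 1.48) and its log2 ratio −0.39, so of the thymidylate genes it stood closest to equal levels among those below 0. The level of TYMS per length was 6.47 times that of DUT in mock cells and 4.64 times in RHCG cells.

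TK1, the cytosolic thymidine kinase, was the most abundant of the 9 genes in both libraries, at 210 RPKM in mock cells and 87.4 in RHCG cells. It was 2.40-fold lower (2.30 to 2.50; log2 ratio −1.25). TK2, the mitochondrial kinase, was at 4.75 RPKM in mock cells and 6.91 in RHCG cells, a value 1.46-fold higher (1.31 to 1.62; log2 ratio 0.46). The log2 ratio of TK1 was thus 1.71 below that of TK2. TK2 made up 2.21% of the summed RPKM of the pair in mock cells and 7.33% in RHCG cells.

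**Figure D2:**
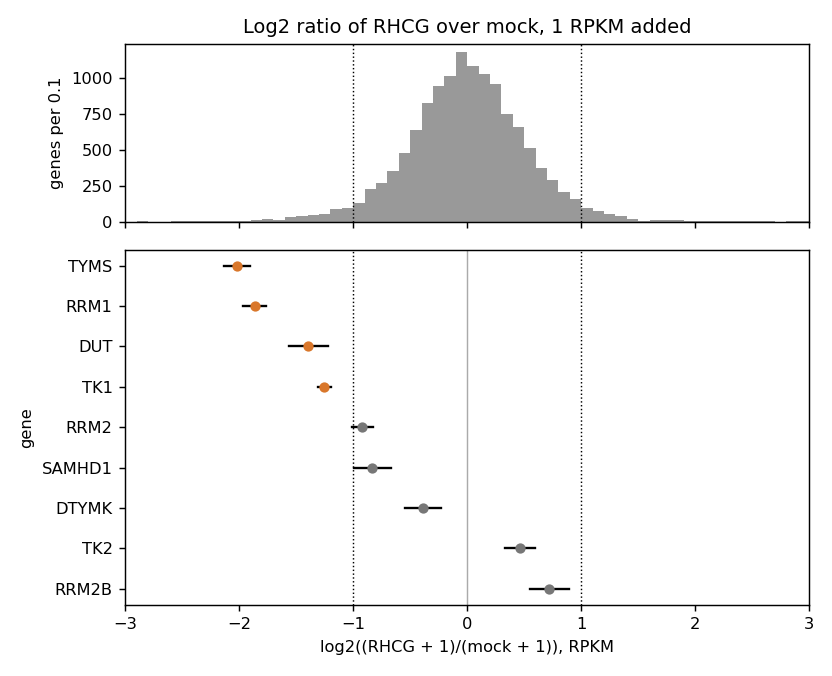
Upper panel: number of genes per 0.1 of log2((RHCG + 1)/(mock + 1)) over the genes measured, drawn from −3 to 3. Lower panel: the 9 genes with approximate 95% counting intervals (lines); dotted lines mark the 2-fold rule, and TYMS (−2.02), RRM1 (−1.86), DUT (−1.39) and TK1 (−1.25) lie past it.

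The subunits of ribonucleotide reductase differed in their ratios. RRM1, the large subunit, was at 46.8 RPKM in mock cells and 12.1 in RHCG cells. This is 3.86-fold lower (3.58 to 4.16; log2 ratio −1.86), rank 44 from the lowest of all genes measured. RRM2, the small subunit of S phase, was at 33.9 RPKM in mock cells and 17.4 in RHCG cells. Its fold was 1.94 (1.82 to 2.07) and its log2 ratio −0.92, just short of the rule, and its counting interval does not overlap that of RRM1. RRM2B, the p53-induced small subunit, was at 2.28 RPKM in mock cells and 4.40 in RHCG cells. The RRM2B value was 1.93-fold higher (1.64 to 2.27) and its log2 ratio was 0.72, so that RRM2 and RRM2B differed by a similar factor in opposite directions.

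The log2 ratio of RRM2 was 1.64 below that of RRM2B. RRM2B made up 6.30% of the summed small-subunit RPKM in mock cells and 20.1% in RHCG cells. RRM2 was the main small subunit in both, at 14.9 times the level of RRM2B in mock cells and 3.96 times in RHCG cells. The order of large and small subunit turned: RRM1 was at 1.29 times the summed level of RRM2 and RRM2B in the mock library and at 0.555 times in the RHCG library. These are RNA levels per length, which do not give the amounts of protein. The 51 genes nearest to RRM1 and to RRM2 also differed, with median log2 ratios of −0.66 and 0.38. After correction for these, described below, RRM1 and RRM2 could not be ordered.

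**Figure D3:**
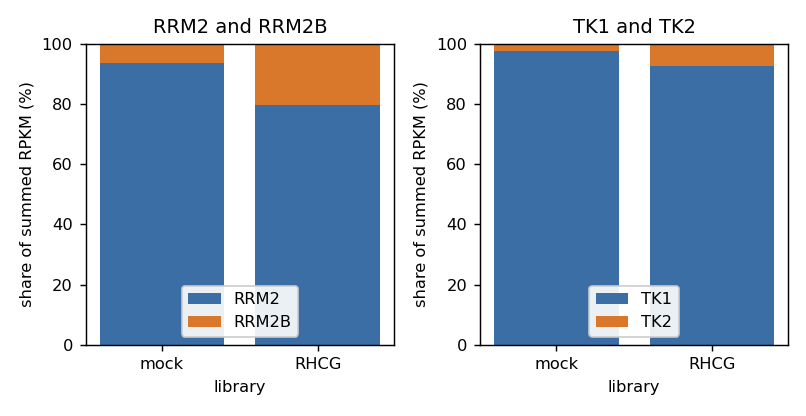
Share of each isozyme in the summed RPKM of its pair, in percent, for the small subunits RRM2 and RRM2B (left) and the thymidine kinases TK1 and TK2 (right), in each library. RRM2B is 6.30% and 20.1% of its pair, and TK2 2.21% and 7.33%, in mock and RHCG cells.

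SAMHD1, the triphosphohydrolase that lowers deoxynucleotide pools, was at 3.58 RPKM in mock cells and 1.57 in RHCG cells, the lowest level of the 9 genes there. The plain fold was 2.28 (1.93 to 2.71), and with 1 RPKM added the log2 ratio was −0.83, short of the rule; with 0.1 RPKM added it was −1.14, past the rule. RRM2 and SAMHD1 could not be ordered: their log2 ratios differed by −0.08 with 1 RPKM added and by 0.19 with 0.1 RPKM added, and their counting intervals overlap. RRM2 was at 9.46 times the level of SAMHD1 in mock cells and 11.1 times in RHCG cells. Summed over the 9 genes, the level was 422 RPKM in mock cells and 174 in RHCG cells.

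Log2 ratios in these libraries also shift along chromosomes, so each gene was set beside the 51 nearest measured protein-coding genes. RRM1 on chromosome 11 stood among neighbours with a median of −0.66, and it was lower than all 51 of them, by 1.20 relative to that median. TYMS on chromosome 18 and RRM2 on chromosome 2 stood among neighbours with medians of 0.26 and 0.38, and each was lower than all 51 neighbours. Relative to the neighbours the ratio of RRM2 was −1.30, past the rule, and that of RRM1 −1.20. Before this step the counting intervals of the log2 ratios were −1.01 to −0.83 for RRM2 and −1.97 to −1.76 for RRM1. The corrected values lie closer together than either interval is wide, so RRM1 and RRM2 could not be ordered after the correction. DUT was lower than all 51 of its neighbours (median 0.06) and TK1 than 50 of 51 (median −0.16). SAMHD1 was also lower than 50 of 51. TK2 and RRM2B each lay above 46 of 51 neighbours, whose medians were 0.00 and 0.12. The nearest measured gene had a log2 ratio of 0.16 for RRM1 (STIM1), 0.33 for TK1 (AFMID), −0.73 for TK2 (CKLF), 0.23 for DTYMK (ING5) and −0.61 for SAMHD1 (MTCL2). For RRM2 it was CYS1, listed at 0 in mock cells and at 1.18 RPKM in RHCG cells.

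**Figure D4:**
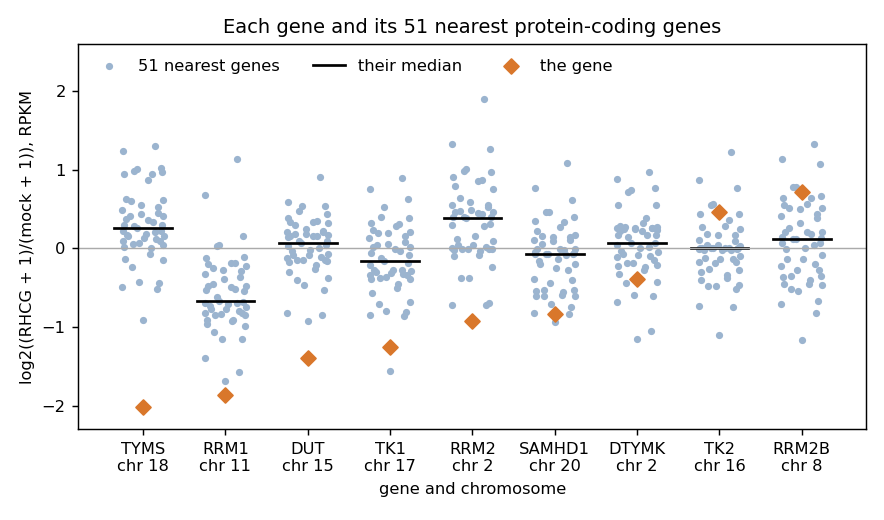
Log2((RHCG + 1)/(mock + 1)) of each of the 9 genes (diamonds), of its 51 nearest measured protein-coding genes (dots) and the median of these (bars), with the chromosome under each name. TYMS, RRM1, RRM2 and DUT lie below all their neighbours, and the bar of RRM1 is at −0.66.

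Of 27 other enzymes and carriers of deoxynucleotides and deoxynucleosides reported here, 24 were measured, 1 was higher, 0 were lower, and the median was 0.08. With 2.74% of all genes higher and 3.30% lower, these counts show nothing particular to the list. The higher gene was UPP1, uridine phosphorylase, at 21.5 and 58.0 RPKM. NUDT1, which removes oxidised purine deoxynucleotides, was nearest to the rule among those below 0, at 66.9 and 34.4 RPKM (log2 ratio −0.94). The salvage kinases DCK (−0.34) and DGUOK (0.49) stayed inside the rule, as did DCTD (−0.16), which makes dUMP from dCMP. The most abundant genes of the list, NME2, GUK1 and DCTPP1, had ratios of −0.11, 0.06 and −0.15. NME1 and NME2 have closely similar sequences that can share reads.

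Folate enzymes supply the methyl group that TYMS transfers. Of 10 such genes reported here, 0 were lower and 1 higher, and the median was −0.13. Over all genes measured, 3.30% were lower and 2.74% higher. The higher gene was the mitochondrial enzyme MTHFD2, at 71.7 and 187 RPKM. SHMT1, which makes the methylene group in the cytosol, was at 91.0 and 52.0 RPKM (log2 ratio −0.80), while SHMT2, its mitochondrial counterpart, was at 138 and 121 RPKM (−0.19). Of 7 electron donors of ribonucleotide reductase, 1 was lower, GLRX, at 4.96 and 1.47 RPKM, and the median was −0.01. TXNRD1, thioredoxin reductase, was at 118 RPKM and 135 RPKM, and TXN, thioredoxin, at 48.1 and 41.4 RPKM. Synthesis of the ribonucleotide precursors gave 0 genes past the rule in either direction, of 7 pyrimidine genes (median 0.27) and 15 purine genes (median −0.09). CAD, which starts pyrimidine synthesis, was at 53.9 and 65.4 RPKM, and IMPDH2, which starts guanine nucleotide synthesis, at 165 and 153 RPKM.

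**Figure D5:**
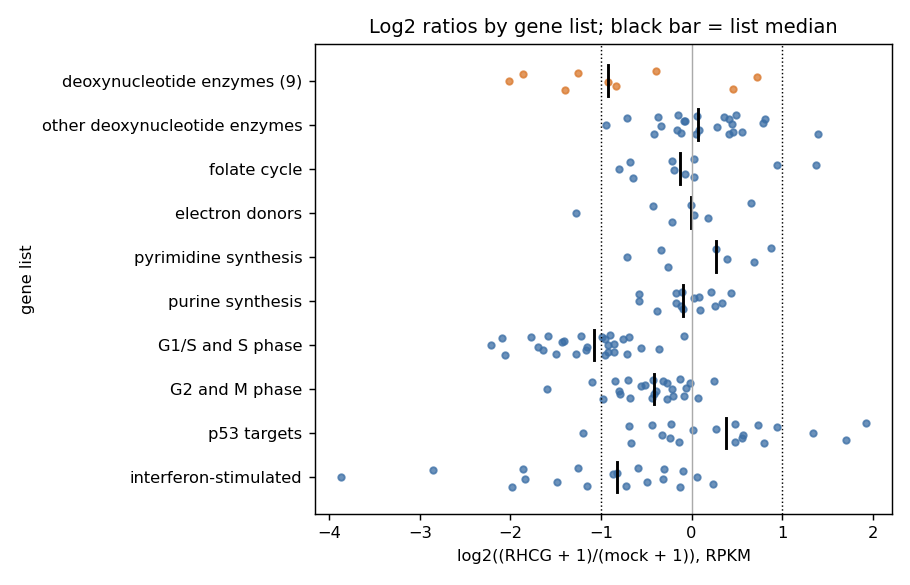
Log2((RHCG + 1)/(mock + 1)) of each measured gene (dots) by gene list, with the list median (black bar) and the 2-fold rule (dotted lines). The medians are −0.92 for the 9 deoxynucleotide enzymes, −1.07 for the G1/S and S phase genes, −0.82 for the interferon-stimulated genes and 0.08 for the other deoxynucleotide enzymes.

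Of 28 genes of the G1/S transition and S phase outside the pathway, 14 passed the rule downward and 0 upward (median −1.07). CCNE1 (log2 ratio −0.08), RFC2 (−0.35) and RFC4 (−0.55) were among those that did not pass it. Of 25 genes of the G2 and M phases, 2 passed downward and 0 upward (median −0.42). Over all genes measured, 3.30% passed downward and 2.74% upward. Of the G1/S and S phase genes, CDT1, which licenses replication origins, was at 22.3 and 5.81 RPKM. UHRF1, which maintains DNA methylation at the fork, was at 53.8 and 17.3 RPKM. TYMS and RRM1 each lay below 25 of the 28 S phase genes, DUT below 18 and TK1 below 17. RRM2 lay below 9 of the 28, and DTYMK below 2. All 25 measured G2 and M phase genes had a higher ratio than TYMS and RRM1, while DTYMK lay within their range, with 14 lower and 11 higher. TK2 and RRM2B lay above all 28 and all 25 genes of both lists.

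RRM2B is a p53 target, and SAMHD1 is known to respond to interferon. Of 20 other p53 target genes, 3 were higher (GDF15, SESN2 and TNFRSF10B) and 1 lower (DDB2), with a median of 0.38. Among all genes measured, 2.74% were higher and 3.30% lower. CDKN1A, the cell cycle inhibitor most used as a p53 readout, was at 48.0 and 80.4 RPKM (log2 ratio 0.73). BAX, also among the most abundant of the list, was at 71.8 and 44.1 RPKM (−0.69), and MDM2 at 13.3 and 11.2 RPKM (−0.24). Of the 20 genes, 12 had ratios above 0 and 8 below 0, so the list did not move as one. Of 25 interferon-stimulated genes, 19 were measured, of which 8 passed the rule downward and 0 upward (median −0.82). With no filter, the 6 genes listed at 0 in both libraries entered with a ratio of 0 by construction, and the median was −0.49. Without those 6 genes it was −1.07 with 0.1 RPKM added and −1.20 over genes whose mean reached 5 RPKM. Whether these genes share a cause with RRM2B or SAMHD1 was not tested. The 12 pseudogene copies of TYMS, RRM2 and DUT in the table were at 0 in both libraries.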

How the data were processed

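Total RNA of both KYSE30 transfectants was depleted of ribosomal RNA and made into Ion Total RNA-Seq libraries, per the labels' protocols. The submitters' processing notes name hg19 and bedtools 2.25.0; no aligner, annotation or counting rule is named there. Each library's table, as deposited by the authors, is headed RPKM, but its values are log2 of RPKM with no pseudocount; genes at 0 had 1 RPKM or less or were not counted. The 40448 rows (112 with a copy suffix, summed) gave 40392 Entrez genes, named through RefSeq (GRCh38.p14).

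Genes listed at 0 in 1 library were set to 1 RPKM, and the 12857 genes above 0 in at least 1 library were measured. Depth was read from small nucleolar and nuclear RNA genes, whose RPKM times length fell on multiples of 52.8 (mock) and 45.4 (RHCG); 10 of 24 and 14 of 25 of those below 20 reads came within 0.02 of a whole read, so counts were not recovered. Approximate reads used GENCODE exonic lengths and gave 95% Clopper-Pearson counting intervals. In data simulated with Poisson error alone, 96% of 50 genes made 2.5-fold lower were called among 12568 genes. The members and lists were chosen with earlier results of these data known, and 2 genes of the lists are not reported here and were left out of list counts and medians. Named genes were the 9 members and, of each list, genes drawn from those past 2-fold and the 3 most abundant; CCNE1, RFC2, RFC4, ENOSF1, the nearest measured genes and other genes named beside these were chosen after their values were seen, as were the promoter stretches after their matches. Alternatives were other pseudocounts, floors, filters, folds, scalings and a neighbour correction. Python 3.11.15, numpy 2.4.6, scipy 1.17.1 and matplotlib 3.10.9 were used.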

Additional observations from a re-analysis of the deposited data

How the results depend on the processing

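No paired analysis was possible because each group had a single library, which also could not be omitted. With the median of 51 neighbouring genes subtracted, the log2 ratios became −2.28 for TYMS, −1.09 for TK1, −1.20 for RRM1 and −1.30 for RRM2, the gap between RRM2 and RRM2B became −1.90, and that between RRM2 and SAMHD1 −0.53. With 0.1 RPKM added, the log2 ratios became 0.92 for RRM2B, −1.57 for DUT and −1.14 for SAMHD1. The gap between RRM2 and RRM2B then became −1.87, and that between RRM2 and SAMHD1 turned to 0.19; the smaller added value weighs low genes more by construction. The count of lower members was 4 or 5 at 2-fold under every setting and 6 at 1.5-fold, where 1 member was higher. Genes lower and higher in the whole table became 673 and 533 with 0.1 RPKM added, 1004 and 686 with values listed at 0 kept at 0 RPKM, and 1481 and 1447 at 1.5-fold, looser rules by construction. The other scalings removed shifts of 0.03 (median of ratios) and 0.01 (trimmed mean). Of the lists, GLRX no longer counts where the mean must reach 5 RPKM, and the other deoxynucleotide and folate lists each have 1 lower gene with values listed at 0 kept at 0 RPKM. With 0.1 RPKM added, 2 p53 targets were lower. At 1.5-fold, lower genes became 25 for G1/S and S phase, 8 for G2 and M phase, 3 for folate, 3 for p53 targets, 2 for other deoxynucleotide enzymes and 1 for pyrimidine synthesis, and higher genes 6 for p53 targets, 3 for other deoxynucleotide enzymes, 2 for folate, 2 for pyrimidine synthesis and 1 for electron donors. With the neighbours' median subtracted, the pyrimidine list's median turned to −0.08.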

Other observations

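Several genes whose products make, move or dephosphorylate deoxynucleotides in mitochondria had ratios above 0, a grouping made after the values were seen and therefore given without a test. TK2 (log2 ratio 0.46), the deoxyguanosine kinase gene DGUOK (0.49), the deoxyribonucleotidase gene NT5M (0.55), the nucleoside diphosphate kinase gene NME4 (0.41) and the pyrimidine nucleotide carrier genes SLC25A33 (0.44) and SLC25A36 (0.46) were the genes of this grouping. Of the cytosolic enzymes with the same reactions, TK1 was at −1.25, DCK at −0.34, NT5C at −0.08, NME1 at 0.09 and NME2 at −0.11. None of these 6 mitochondrial genes passed the 2-fold rule, which 2.74% of all genes passed in that direction.

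Of the nucleoside transporter and degrading enzyme genes named next, none passed the 2-fold rule. That rule was passed downward by 3.30% of all genes measured and upward by 2.74%. UPP1, the uridine phosphorylase gene of the same list given above, did pass it upward. The equilibrative transporter gene SLC29A1 was at 17.6 RPKM in mock cells and 10.3 in RHCG cells, and SLC29A2 at 13.7 and 24.8 RPKM. ADA, adenosine deaminase, was at 10.3 and 18.5 RPKM, and PNP, purine nucleoside phosphorylase, at 22.2 and 16.4 RPKM. TYMP, thymidine phosphorylase, was at 1.58 RPKM in mock cells and listed at 0 in RHCG cells. Its log2 ratio of −0.37 rests on setting that value to 1 RPKM. With values listed at 0 kept at 0 RPKM, TYMP is the 1 lower gene of the other deoxynucleotide list.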
